A study of Mus musculus with 9 samples.

Results

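The common gamma chain, encoded by *Il2rg*, is the shared signalling subunit of the receptors for IL-2, IL-4, IL-7, IL-9, IL-15 and IL-21. Described here are 9 genes of this family, listed by symbol, out of 24054 genes in the deposited tables: the shared chain *Il2rg*, the receptor chains *Il21r*, *Il4ra*, *Il13ra1*, *Il7r*, *Il2ra*, *Il2rb* and *Il15ra*, and the cytokine *Il15*. The list was set by gene family.

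The libraries were made from spleen of C57BL/6 mice. All animals were Clec9a-Cre/Cre Rosa-tdTomato/tdTomato, so both copies of *Clec9a* carry Cre and both Rosa26 copies the reporter, also in the cells that stayed TOMATO-negative. TOMATO (TOM) marks a history of Clec9a-driven Cre, which is active in progenitors of conventional dendritic cells (cDC), and a TOM- cell is therefore defined by the lack of a recorded recombination event. Cells were live, single, low in autofluorescence, and positive for MHCII, CD11c and CD11b, and formed 3 groups of 3 libraries each: TOM+ cDC2 from mice at postnatal day 8, TOM- DC2 from mice at postnatal day 8, and TOM+ cDC2 from adults, aged 9 weeks in replicate 1 and 8 weeks in replicates 2 and 3. Before sorting, young spleens were combined into pools, and no adult TOM- group was analysed here. Age was therefore compared among TOM+ cells, and the comparison of adult TOM+ cDC2 with young TOM- DC2 joins age and TOMATO history.

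Markers fixed for cDC2 were present in all groups. *H2-Ab1* reached 16830 ± 39.5 TPM (transcript abundance relative to the total of a library; mean ± SD, n = 3 libraries) in young TOM+ cDC2, 16220 ± 620 in young TOM- DC2 and 28830 ± 1014 in adult TOM+ cDC2. *Itgax*, *Sirpa*, *Itgam*, *Flt3*, *Zbtb46* and *Clec4a4* each had group means of at least 77.9 TPM, the lowest being *Itgam* in adults. In the young groups *Irf4* and *Esam* lay lower, with 59.93 and 18.96 TPM in TOM+ cDC2 and 68.13 and 28.36 in TOM- DC2. *Esam* and *Clec4a4* were higher in adult than in young TOM+ cDC2, with log2 fold changes of 2.21 and 1.49 in the test described below. The study reports a smaller share of ESAM-high cells among cDC2 of neonatal than of adult spleen. The part of this shift in the differences with age was not tested. *Clec9a* itself lay between 0.05 and 0.34 TPM in the 9 libraries. Both copies of the gene carry Cre in these mice, so this level alone cannot tell which cells were present. Reads counted on genes numbered 12783252 to 22809401 per library.

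Private receptor chains assemble with the common gamma chain into receptors that bind a cytokine. The Janus kinases JAK1 and JAK3 bound to the receptor then phosphorylate STAT proteins. These are mainly STAT5 for IL-2, IL-7 and IL-15, STAT6 for IL-4 and STAT3 for IL-21. IL-4 can also signal without the common gamma chain through IL4RA and IL13RA1. IL-15 is an exception among the cytokines of the family, because dendritic cells hold it on IL15RA at their own surface and present it to neighbouring lymphocytes that carry IL2RB and the common gamma chain. In dendritic cells the family is known for this trans-presentation and for the effects of IL-4 and IL-21 on activation.

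The stretches of genome just before the annotated starts are shown for the shared chain *Il2rg*, for *Il21r*, *Il2ra* and *Il15ra*, which were called higher in adult than in young TOM+ cDC2, and for *Il7r*, the member with a match to a STAT motif. The windows are those of RefSeq on GRCm38.p6, covering 250 bases before a start, and were found for 7 of the 9 members (*Il2rb* and *Il15* had none). They are printed 5′ to 3′ on the strand of the gene. Where a window reached into the gene as RefSeq spans it, or into a GENCODE exon, only the part outside is given. Capitals mark motif matches on either strand.
*Il2rg*, chrX:101268256-101268505, minus strand: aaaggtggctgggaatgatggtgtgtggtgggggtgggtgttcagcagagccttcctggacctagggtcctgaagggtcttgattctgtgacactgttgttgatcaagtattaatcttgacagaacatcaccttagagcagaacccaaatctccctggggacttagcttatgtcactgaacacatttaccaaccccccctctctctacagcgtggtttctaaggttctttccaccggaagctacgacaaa
*Il21r*, chr7:125603179-125603251, plus strand: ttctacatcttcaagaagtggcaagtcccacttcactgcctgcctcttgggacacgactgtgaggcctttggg
*Il2ra*, chr2:11642542-11642791, plus strand: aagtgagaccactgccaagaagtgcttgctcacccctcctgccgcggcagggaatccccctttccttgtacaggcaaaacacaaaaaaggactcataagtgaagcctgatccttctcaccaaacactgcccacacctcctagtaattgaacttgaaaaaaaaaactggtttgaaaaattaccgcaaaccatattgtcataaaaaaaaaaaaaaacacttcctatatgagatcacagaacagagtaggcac
*Il15ra*, chr2:11705043-11705171, plus strand: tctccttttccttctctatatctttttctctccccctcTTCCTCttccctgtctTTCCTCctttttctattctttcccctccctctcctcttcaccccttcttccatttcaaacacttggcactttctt
*Il7r*, chr15:9529942-9530040, minus strand: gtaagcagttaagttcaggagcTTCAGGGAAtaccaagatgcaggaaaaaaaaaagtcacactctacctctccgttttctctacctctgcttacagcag

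The *Il15ra* stretch holds 2 matches to the core bound by the myeloid factor PU.1 (GAGGAA, here read on the opposite strand), whose nearest bases lie 207 and 191 bases before the start at position 11705293. This core occurred in 23.3% of the 32851 RefSeq windows of the same length. The *Il7r* stretch holds 1 match to TTC and GAA with 3 bases between them, the spacing that STAT5 prefers. Its nearest base lies 134 bases before the start at position 9529876, which is inside the gene as RefSeq spans it. Of all windows, 7.02% hold such a match. The other motifs searched were GAAA and GAAA with 2 bases between them (interferon-stimulated response element, 2.98% of windows), TTC and GAA with 4 bases between them (the STAT6 spacing, 5.85%) and GGG and TTTCC with 2 bases between them (NF-κB, 1.41%). None of the whole windows of *Il2rg*, *Il21r*, *Il2ra*, *Il4ra* or *Il13ra1* held a match to any of the motifs, which says only that these letters are not in these windows.

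Levels of the 9 genes spanned the range from among the highest in the libraries to the limit of detection. TPM is corrected for transcript length, so that levels can be compared between genes. In young TOM+ cDC2 the order was *Il2rg*, *Il21r*, *Il13ra1*, *Il4ra*, *Il15ra*, *Il15*, *Il7r*, *Il2ra* and *Il2rb*. Among neighbours in this order, only *Il15ra* and *Il15* had overlapping ranges over the 3 libraries. Young TOM- DC2 had the same order, except that *Il2rb* lay above *Il2ra*, and in adult TOM+ cDC2 *Il4ra* lay above *Il13ra1*. By mean TPM, *Il2rg* exceeded 98.4% of the 14452 tested genes in young TOM+ cDC2 and 99.0% in adults. *Il21r* exceeded 90.6% and 96.9%, whereas *Il15* and *Il15ra* lay near the middle, above 42.1% and 42.8% of the genes in young TOM+ cDC2 and above 54.3% and 54.8% in adults.

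**Figure D1:**
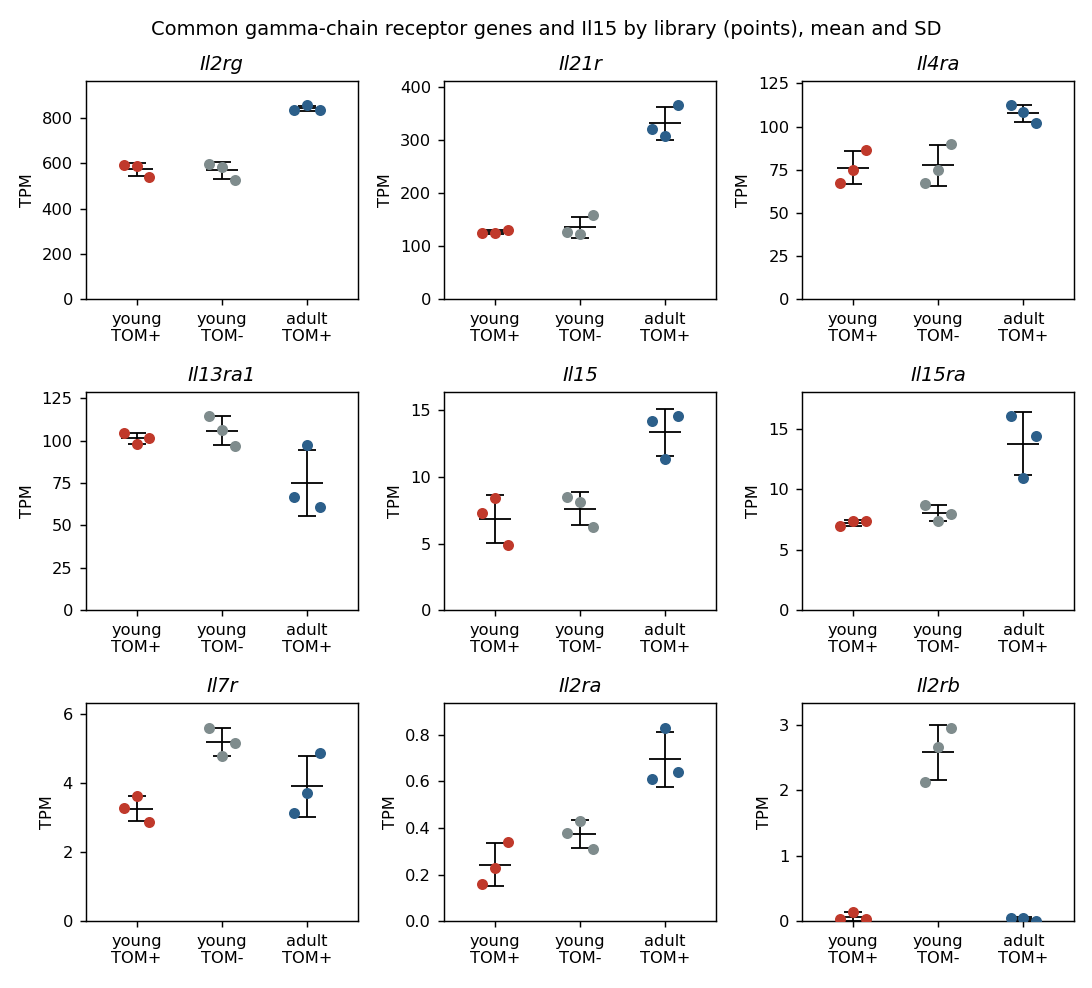
TPM (linear axes that start at 0, each with its own scale) of the 9 genes in the 3 libraries of each group (points), with the mean and SD as bars. Il2rg, Il21r, Il4ra, Il15, Il15ra and Il2ra are higher in every adult library than in every young library, and Il2rb is above 2 TPM in young TOM- DC2 and at most 0.15 TPM in all other libraries.

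Differences between groups were tested with edgeR's quasi-likelihood test on the counts of 14452 genes whose mean count was 1 or more, fitting all 9 libraries together. Genes were called at a Benjamini-Hochberg adjusted p (padj) under 0.05 and a log2 fold change (log2FC) beyond 1 in either direction. Each padj below comes from this edgeR test unless another is named. The study describes the libraries as biological replicates, but the sources used here do not tie each library to its animals or pool, and the tests measure the spread between these libraries. In sorted bulk RNA, fewer cells that express a gene and less RNA of it per cell cannot be told apart.

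Between young TOM+ cDC2 and young TOM- DC2, 1 of the 9 genes was called, *Il2rb*, which was higher in TOM- DC2. The background was 1.16% of all tested genes for calls in this direction and 0.0208% for calls in favour of TOM+ cDC2. At padj alone it was the same gene, against 1.47% of all genes in this direction and 0.125% in the other. The median log2FC of the 9 genes was -0.08, and that of all tested genes was 0.00. Between adult and young TOM+ cDC2, 4 of the 9 genes were called higher in adults, *Il21r*, *Il2ra*, *Il15ra* and *Il15*, and none higher in young cells. The share of all genes called higher in adults was 6.86%, and 5.96% were called higher in young TOM+ cDC2. At padj alone 6 of the 9 were higher in adults, with *Il2rg* and *Il4ra* added, against 19.5% of all genes, and none was higher in young cells, against 21.0%. The median log2FC of the 9 genes with age was 0.71, and that of all tested genes was -0.05.

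Against young TOM- DC2, in a comparison that uses the same adult libraries, adults had 2 of the 9 genes called higher (*Il21r* and *Il15ra*) and 1 called lower (*Il2rb*). Of all genes, 4.78% were called higher in adults and 6.5% higher in TOM- DC2. At padj alone 6 genes were higher in adults and 1 in TOM- DC2, against 16.9% and 19.4% of all genes. The median log2FC was 0.74 for the 9 genes and -0.07 for all.

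**Figure D2:**
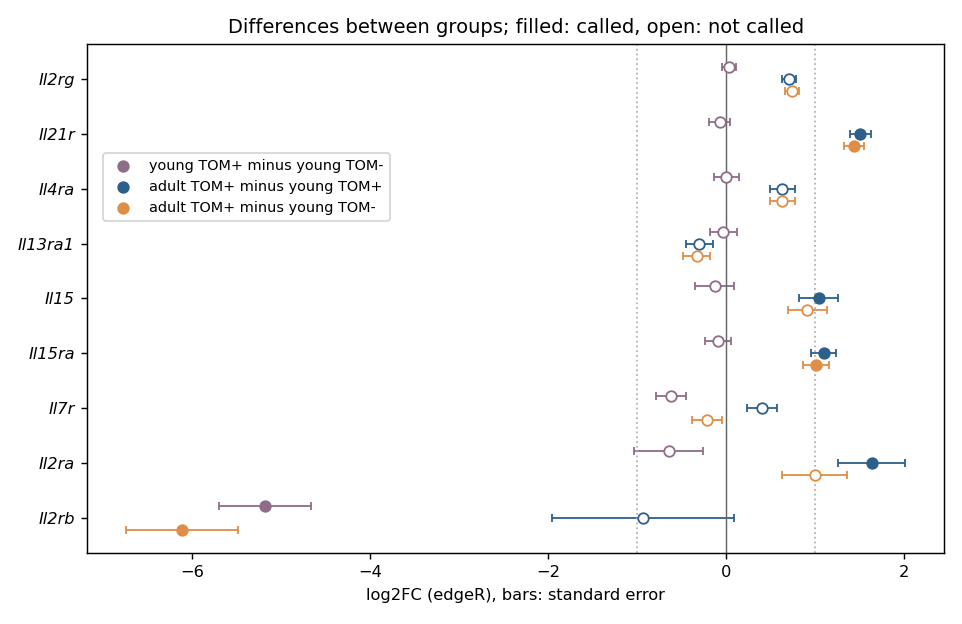
log2FC between groups from edgeR for the 9 genes, with the standard error as bars, in 3 comparisons shown by colour. Filled points were called and open points were not, and dotted lines mark a log2FC of -1 and 1. The differences between both young groups lie near 0 for all genes but Il2rb, Il2ra and Il7r, and the 2 comparisons with adults share the adult libraries.

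*Il2rg* (chrX:101264385-101268255, GRCm38.p6) encodes the shared chain itself and was the most abundant member in every library. Its TPM was 593.09, 586.7 and 538.82 in young TOM+ cDC2 and 597.14, 584.55 and 527.29 in young TOM- DC2. It was 834.29, 856.25 and 835.35 in adult TOM+ cDC2. Each adult library was above all young libraries, while both young groups covered the same range. The gene was 1.64-fold higher in adult than in young TOM+ cDC2 (log2FC 0.71 ± 0.08 SE, padj = 2.45e-05), short of the fold required for a call. The difference from young TOM- DC2 was 0.74 ± 0.08 (padj = 2.34e-05), and that between both young groups was 0.03 ± 0.08 (padj = 0.97).

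*Il21r* (chr7:125603252-125634397) encodes the private chain of the IL-21 receptor, the chain that binds a cytokine made mainly by helper T cells. Its TPM was 124.77, 124.29 and 130.96 in young TOM+ cDC2, 125.53, 121.98 and 157.74 in young TOM- DC2, and 320.69, 307.09 and 365.13 in adults. The lowest adult library lay far above the highest young one. This was a 2.85-fold difference with age within TOM+ cDC2 (log2FC 1.51 ± 0.12, padj = 1.53e-06), and 2.71-fold against TOM- DC2 (1.44 ± 0.12, padj = 2.89e-06). Both calls held in all 20 alternative fits. Between the young groups the log2FC was -0.07 ± 0.11 (padj = 0.942), and its sign depended on TOM- DC2 replicate 3, without which it was 0.08.

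*Il21r* also made up most of the summed chains that form receptors with the common gamma chain. They are called private chains here, although *Il2rb* serves both IL-2 and IL-15. Summed over *Il2ra*, *Il2rb*, *Il4ra*, *Il7r*, *Il9r*, *Il15ra* and *Il21r*, private chains came to 213.8 ± 12.9 TPM in young TOM+ cDC2, 228.9 ± 30.7 in young TOM- DC2 and 457.8 ± 28.1 in adults. *Il21r* took 59.3% ± 2.07 of this sum in young TOM+ cDC2, 59.0% ± 1.36 in young TOM- DC2 and 72.2% ± 2.35 in adults. The share of *Il4ra* was 35.5% ± 2.35, 33.8% ± 1.67 and 23.6% ± 2.29 in the same order. The shared chain stood at 2.69 ± 0.297 times the summed private chains in young TOM+ cDC2 and at 2.53 ± 0.467 times in young TOM- DC2. It stood at 1.84 ± 0.135 times in adults, where the highest library (1.98) was just below the lowest young one (1.99). These ratios describe transcript levels and were not tested.

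*Il4ra* (chr7:125552271-125579474) binds IL-4, and also IL-13 when paired with *Il13ra1*. The TPM of *Il4ra* was 67.33, 74.72 and 86.3 in young TOM+ cDC2, 67.27, 75.03 and 90.1 in young TOM- DC2, and 112.38, 108.38 and 102.36 in adults. All adult libraries exceeded all young ones. Adult TOM+ cDC2 had 1.55-fold more than young TOM+ cDC2 (log2FC 0.63 ± 0.14, padj = 0.00341) and a log2FC of 0.63 ± 0.14 over TOM- DC2 (padj = 0.0038), both short of the fold for a call. Both young groups differed by 0.00 ± 0.14 (padj = 1.0).

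*Il13ra1* (chrX:36112108-36171262) did not share this direction. Its TPM was 104.43, 97.74 and 101.6 in young TOM+ cDC2, 114.28, 106.22 and 97.02 in young TOM- DC2, and 66.75, 97.2 and 60.95 in adults. Adult replicate 2 lay at the level of the young libraries and the other two lay below it. The log2FC with age within TOM+ cDC2 was -0.30 ± 0.15 (padj = 0.139). Without adult replicate 2 it was -0.55 (padj = 0.00114). The ratio of *Il4ra* to *Il13ra1* TPM was 0.753 ± 0.103 in young TOM+ cDC2 and 0.741 ± 0.173 in young TOM- DC2, and 1.49 ± 0.323 in adults, with no adult library (1.12 to 1.68) inside the range of the young ones (0.589 to 0.929). This ratio was not among those planned, restates the levels of both genes given above, and was not tested.

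*Il7r* (chr15:9506159-9529941) encodes the private chain for IL-7, which also serves the receptor for TSLP together with *Crlf2*. Its TPM was 3.28, 3.63 and 2.89 in young TOM+ cDC2, 5.61, 4.79 and 5.17 in young TOM- DC2, and 3.14, 3.71 and 4.87 in adults. All libraries of TOM- DC2 were above those of young TOM+ cDC2, and the adult range overlapped both. The log2FC of young TOM+ cDC2 over TOM- DC2 was -0.61 ± 0.17 and missed the threshold (padj = 0.118). The young libraries of both groups that carry the same number (81, 91 or 92) in their deposited names varied together, and with that number as a replicate block for all libraries the log2FC was -0.62 (padj = 0.0155). With the block on the young libraries alone, padj was 0.0892. With age within TOM+ cDC2 the log2FC was 0.40 ± 0.17 (padj = 0.0788).

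*Il2ra* (chr2:11642792-11693194) and *Il2rb* (chr15:78479256-78511621) complete the IL-2 receptor, *Il2rb* being shared with IL-15, and both were near the limit of detection in TOM+ cells. *Il2ra* was counted with 8, 10 and 18 reads in young TOM+ cDC2, 15, 19 and 20 in young TOM- DC2 and 20, 28 and 28 in adults, or 0.16 to 0.34, 0.31 to 0.43 and 0.61 to 0.83 TPM. Adult levels lay above both young groups. The log2FC with age within TOM+ cDC2 was 1.64 ± 0.38 (padj = 0.00419). Summed counts relative to library sizes scaled by TMM factors (the normalization of the test) gave a ratio of 3.11. Its exact 95% interval of 2.07 to 4.76 covers counting error only. Against TOM- DC2 the log2FC was 1.00 ± 0.36 (padj = 0.0488), just under the fold for a call, and 7 of 20 alternative fits called it.

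*Il2rb* had 1, 4 and 1 reads in young TOM+ cDC2, 48, 71 and 114 in young TOM- DC2 and 1, 1 and 0 in adult TOM+ cDC2. In TPM this was 0.03, 0.15 and 0.03 in young TOM+ cDC2, 2.13, 2.66 and 2.96 in TOM- DC2, and 0.05, 0.05 and 0.0 in adults. The groups with TOM+ cells overlapped each other, and all libraries of TOM- DC2 were above them. The log2FC of young TOM+ cDC2 over TOM- DC2 was -5.18 ± 0.52 (padj = 0.000174), and that of adult TOM+ cDC2 over TOM- DC2 was -6.11 ± 0.62 (padj = 1.69e-05). Relative to library sizes scaled by TMM factors, the 233 reads in TOM- DC2 were 40.0 times the 6 reads of young TOM+ cDC2 (exact 95% interval 18.1 to 110.0). They were 81.4 times the 2 reads of adults (22.3 to 676.0), and both intervals are for counting error only. These intervals are wide because the denominators are a few reads, and both calls held in all 20 alternative fits.

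Among the 10112 genes with a mean count of 50 or more, *Sepp1* (Pearson r = 0.962) and *Il1r1* (0.961) were 2 of the 3 whose log2 CPM (counts scaled to library size) followed *Il2rb* most closely over the 9 libraries, given as a description of libraries that fall into groups. A list of 5 markers of type 3 innate lymphoid cells (ILC3) moved in part with *Il2rb*. *Il1r1*, the receptor of IL-1, and *Gata3* were called higher in TOM- DC2 than in young TOM+ cDC2 (log2FC of TOM+ over TOM-: -4.00 ± 0.26 and -3.67 ± 0.31). In this direction 1.16% of all tested genes were called. *Il23r* and *Il17rd* were not called, and *Il22* was at 0 in every library. The summed list lay between 6.05 and 6.79 TPM in TOM- DC2, between 0.42 and 0.51 in young TOM+ cDC2, and between 0.49 and 0.69 in adults. Most of the sum in TOM- DC2 was *Il1r1* (mean 3.91 TPM) and *Gata3* (2.30 TPM), so it does not stand for the list as a whole.

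*Il23r*, which helps define ILC3, reached at most 0.15 TPM in TOM- DC2. Of the markers of natural killer (NK) cells, which carry much IL2RB, the defining genes *Ncr1*, *Klrb1c*, *Prf1*, *Eomes* and *Gzma* reached at most 0.38 TPM in TOM- DC2. *Klrk1* was highest in young TOM+ cDC2 (62.2 ± 3.28 TPM, against 42.3 ± 4.95 in TOM- DC2 and 37.7 ± 6.77 in adults), so that the summed NK list ran from 37.23 to 47.65 TPM in TOM- DC2, 58.67 to 64.89 in young TOM+ cDC2 and 34.06 to 45.56 in adults. The 5 measured T cell markers summed to 2.71 to 6.15 TPM in TOM- DC2, 0.89 to 6.54 in young TOM+ cDC2 and 1.71 to 2.12 in adults, and none was called between the young groups. The part of other cell types in the level of *Il2rb* was not tested.

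**Figure D3:**
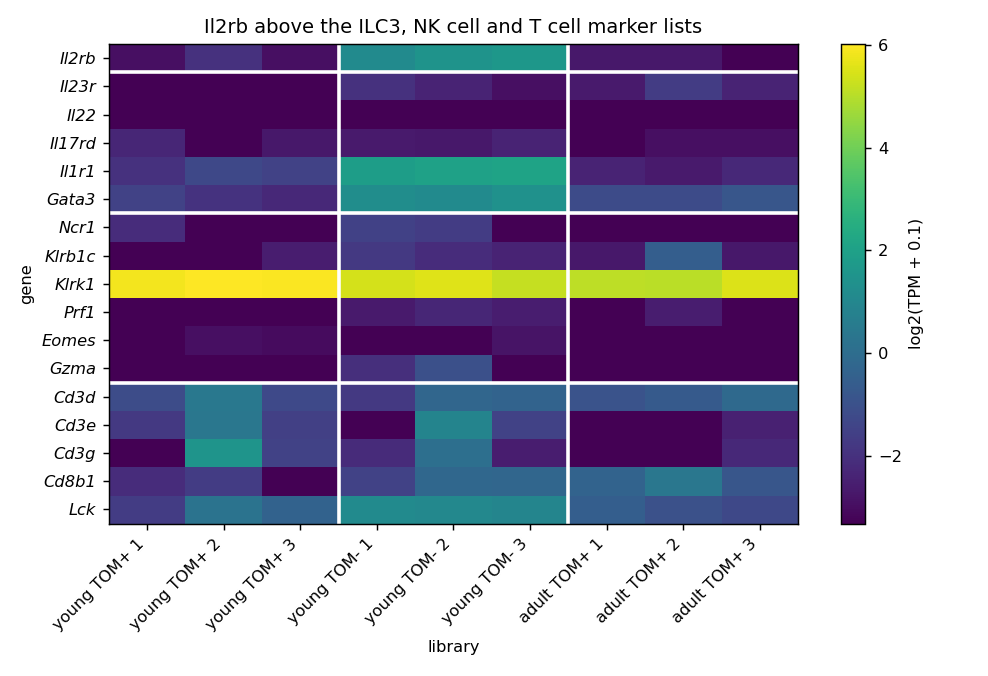
Heat map of log2(TPM + 0.1) for Il2rb (top row) and markers of ILC3, NK cells and T cells (blocks from top to bottom) in the 9 libraries, by group from left to right. Il2rb, Il1r1 and Gata3 are brightest in the 3 libraries of young TOM- DC2, and the NK markers other than Klrk1 are dark throughout.

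IL-15 and the chain that presents it were higher in adult TOM+ cDC2, together and by about the same fold. *Il15* (chr8:82331624-82403252) was at 7.3, 8.42 and 4.91 TPM in young TOM+ cDC2, 8.5, 8.14 and 6.22 in young TOM- DC2 and 14.21, 11.34 and 14.55 in adults. *Il15ra* (chr2:11705172-11733985) was at 6.97, 7.34 and 7.4 TPM in young TOM+ cDC2, 8.72, 7.41 and 7.92 in young TOM- DC2 and 16.02, 10.89 and 14.4 in adults. For both genes adult replicate 2 was the lowest adult library, and still above every young one.

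With age within TOM+ cDC2, *Il15* was 2.06-fold higher (log2FC 1.04 ± 0.22, padj = 0.00247) and *Il15ra* 2.14-fold (1.10 ± 0.14, padj = 8.16e-05). Both values lay close to the fold for a call. *Il15* fell to 0.86 without young TOM+ cDC2 replicate 3 and to 1.00 without adult replicate 1, and was then not called. *Il15ra* fell to 0.99 without adult replicate 1 and was then not called. Over the 20 alternative fits the call was lost in 4 for *Il15* and in 3 for *Il15ra*. These include limma on log2(TPM + 1) and log2(TPM + 0.1) for both genes (0.89 and 0.97 for *Il15*). All of these padj stayed under 0.05, and the highest over the 20 alternative fits was 0.0108 for *Il15* and 0.00156 for *Il15ra*. Against young TOM- DC2, *Il15* had a log2FC of 0.92 ± 0.22 (padj = 0.00617) and was not called, and *Il15ra* one of 1.01 ± 0.14 (padj = 0.000181) and was called. The latter call was lost in 7 of 20 alternatives, among them the replicate block for all libraries (0.98), the fit without adult replicate 1 (0.90) and that without TOM- DC2 replicate 2 (0.99).

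The ratio of *Il15ra* to *Il15* TPM was 1.11 ± 0.347 in young TOM+ cDC2, 1.07 ± 0.183 in young TOM- DC2 and 1.03 ± 0.0907 in adults, and all 3 ranges overlapped. Between both young groups *Il15* differed by -0.13 ± 0.22 and *Il15ra* by -0.08 ± 0.15 (padj = 0.95 and 0.949). *Il15ra* is the only member with many transcript models (9 in the deposited RefSeq set), and its gene total is given here.

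With the same minimum count, *Il15* was followed most closely over the 9 libraries by *3110052M02Rik*, *H2-M2* and *Card6* (Pearson r = 0.986, 0.985 and 0.964). *Il15ra* was followed by *Tes*, *Fth1* and *Btg1* (0.987, 0.986 and 0.983), *Il21r* by *Rcsd1*, *Nampt* and *Cd80* (0.997, 0.994 and 0.992), and *Il2ra* by *Cd38*, *Zdhhc23* and *Dcaf17* (0.957, 0.956 and 0.955). *Cd80*, a costimulatory ligand for T cells, had mean levels of 49.97 TPM in young TOM+ cDC2, 55.46 in young TOM- DC2 and 130.6 in adults. These correlations run over libraries of 3 groups and mostly repeat the gap between young and adult.

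Markers of mature, CCR7+ dendritic cells moved with age alongside these genes. Of 8 such markers 6 were called higher in adult than in young TOM+ cDC2, and none lower. Of all tested genes, 6.86% were called higher in adults and 5.96% lower. *Fscn1* and *Ccl22* were not called (log2FC 0.46 and 0.52, padj = 0.0785 and 0.144). The call of *Il4i1*, 1 of the 6, rests on at most 36 reads in a library. *Ccr7*, which guides dendritic cells to T cell zones, stood at 307 ± 18.0 TPM in young TOM+ cDC2, 421 ± 73.2 in young TOM- DC2 and 1790 ± 466 in adults. The summed list ran from 710.9 to 778.2 TPM in young TOM+ cDC2, 801.8 to 940.3 in young TOM- DC2 and 2398 to 3557 in adults. Most of the sum in adults was *Ccr7*, so it does not stand for the list as a whole. The part of mature, CCR7+ dendritic cells in the differences of *Il15*, *Il15ra*, *Il21r*, *Il2ra*, *Il2rg* and *Il4ra* was not tested.

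The other ligands and chains of the family were mostly not detected. *Il2*, *Il4*, *Il9*, *Il13*, *Il21* and the decoy receptor *Il13ra2* were listed at 0 TPM in every library, with at most 4 reads counted on *Il2* and none on the others. Of 10 genes in this list 4 were tested. With age 2 of these were called higher in adult TOM+ cDC2 and none lower, against 6.86% and 5.96% of all tested genes. *Il7* and *Il9r* were called higher in adult than in young TOM+ cDC2, with log2FC of 3.17 ± 0.73 and 2.45 ± 0.70, at levels of only 0.40 ± 0.0702 and 0.71 ± 0.497 TPM in adults. The call of *Il9r* was lost without adult replicate 1 (padj = 0.0758) or young TOM+ cDC2 replicate 3 (padj = 0.0546). *Crlf2*, the TSLP receptor chain and the most abundant of the list, rose from 65.7 ± 6.08 TPM in young to 81.4 ± 2.71 in adult TOM+ cDC2 (log2FC 0.42 ± 0.10, padj = 0.00442), short of the fold for a call.

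Kinases and STATs downstream of the receptors moved in both directions with age. Of 8 genes tested, 1 was called higher in adult than in young TOM+ cDC2 and none lower. At padj alone 4 were higher and 2 lower. Over all tested genes, 6.86% were called higher and 5.96% lower, and at padj alone 19.5% were higher and 21.0% lower. *Stat3*, which serves IL-21, rose from 111 ± 12.7 to 208 ± 12.3 TPM (1.05 ± 0.10, padj = 6.05e-06). The call of *Stat3* was lost without young TOM+ cDC2 replicate 2 (1.00, padj = 6.61e-05) or adult replicate 2 (0.99). *Stat5a*, *Stat5b* and *Stat6* rose by log2FC of 0.37, 0.56 and 0.43 (padj = 0.0036, 0.00181 and 0.00364). *Jak3*, the kinase that binds the common gamma chain, fell from 49.2 ± 6.92 to 31.4 ± 1.07 TPM (log2FC -0.52 ± 0.10, padj = 0.00112), in the opposite direction to *Il2rg*. *Tyk2* fell by 0.44 on the log2 scale (padj = 0.00669), and *Jak2*, the most abundant of this list over all libraries, had a log2FC of 0.27 ± 0.12 (padj = 0.097). None of the 8 passed the test between the young groups.

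Among 10 adaptors and genes of the PI3K branch, 1 was called higher in adult than in young TOM+ cDC2 and none lower. Their median log2FC was 0.10. All tested genes had 6.86% called higher and 5.96% lower, and a median log2FC of -0.05. *Pik3r1*, a regulatory subunit of PI3K, rose from 38.3 ± 6.48 to 86.9 ± 13.8 TPM (log2FC 1.34 ± 0.14, padj = 1.93e-05). The kinase *Akt1* fell from 237 ± 5.15 to 160 ± 6.45 TPM (log2FC -0.44 ± 0.09, padj = 0.00158), and *Grb2*, the most abundant adaptor, was at 433 ± 17.7 and 440 ± 25.0 TPM (padj = 0.245).

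Of 7 feedback inhibitors of the pathway, 1 was called higher in adults and 1 lower. These were both members of the family of cytokine-induced SOCS proteins. By comparison, 6.86% of all tested genes were called higher in adults and 5.96% lower. *Socs2* rose from 8.74 ± 1.03 to 29.0 ± 11.8 TPM with age in TOM+ cells (log2FC 1.82 ± 0.23, padj = 6.58e-05). *Cish* fell from 17.0 ± 3.35 to 3.98 ± 0.601 TPM (log2FC -1.99 ± 0.27, padj = 0.000103), and young TOM- DC2 had 19.8 ± 6.01 TPM. *Socs1* was at 29.1 ± 5.40 and 31.5 ± 4.58 TPM (padj = 0.452), and *Socs3* fell by 0.68 on the log2 scale (padj = 0.00861). The phosphatase gene *Ptpn6*, most abundant of this list, rose from 623 ± 117 to 916 ± 134 TPM (log2FC 0.69 ± 0.14, padj = 0.00179).

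The list of 10 STAT5 targets, which also holds *Cish* and *Socs2*, had 3 genes called higher and 1 lower with age. Matching shares of all tested genes were 6.86% and 5.96%. The list had a median log2FC of 0.12 where that of all genes was -0.05. The kinase gene *Pim1* rose from 199 ± 46.3 to 371 ± 60.5 TPM (log2FC 1.05 ± 0.15, padj = 0.000197). Without young TOM+ cDC2 replicate 2 or adult replicate 3 its log2FC was 0.88 or 0.92, and it was not called. *Osm*, a cytokine of the IL-6 family, had a log2FC of 1.00 ± 0.16 (padj = 0.000334), at the fold for a call, and 7 of 20 alternative fits did not call it (lowest 0.83). These include the replicate block for all libraries (0.97) and the fits without young TOM+ cDC2 replicate 1 (0.89), adult replicate 1 (0.92) or adult replicate 2 (0.99). The survival genes *Bcl2*, *Bcl2l1* and *Mcl1* had log2FC of 0.02, 0.01 and 0.03 (padj = 0.938, 0.981 and 0.919), *Mcl1* being the most abundant of the list. *Ccnd2*, a cyclin, was lower in young TOM+ cDC2 than in TOM- DC2 (29.3 ± 1.46 against 42.0 ± 4.31 TPM, log2FC -0.49 ± 0.11, padj = 0.0396) and was the only gene of the list to pass the test there.

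Genes that IL-4 and STAT6 induce in myeloid cells were divided. Of 14 in the list, 4 were called higher and 3 lower in adult than in young TOM+ cDC2. Calls among all tested genes came to 6.86% higher and 5.96% lower. Those higher in adults were *Pdcd1lg2* (7.44 ± 1.47 to 19.1 ± 0.372 TPM, log2FC 1.52 ± 0.13, padj = 3.99e-06), *Egr2* (133 ± 41.2 to 310 ± 95.4 TPM, 1.34 ± 0.32, padj = 0.00585), *Il4i1* and *Fcer2a*. *Il4i1*, an amino acid oxidase, is also on the list of mature dendritic cell markers. It had 68.9 ± 9.00 and 240 ± 68.8 TPM but at most 36 reads in the count table, so that its log2FC of 2.18 ± 0.51 (padj = 0.00448) rests on few reads.

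Those lower in adults were the lectin gene *Mgl2* (23.5 ± 6.00 to 5.32 ± 0.596 TPM, log2FC -2.09 ± 0.25, padj = 4.06e-05), which has a close relative in *Clec10a*, the lipoxygenase gene *Alox15* (0.79 ± 0.260 to 0.13 ± 0.0404 TPM, -2.20 ± 0.49, padj = 0.00323) and the chemokine gene *Ccl17* (4.87 ± 2.20 to 0.56 ± 0.326 TPM, -2.91 ± 0.87, padj = 0.0182). The call of *Ccl17* was lost without young TOM+ cDC2 replicate 3, adult replicate 1 or adult replicate 3 (padj = 0.0589, 0.0554 and 0.0702). *Arg1*, *Retnla*, *Chil3* and *Mrc1*, the usual markers of IL-4-treated macrophages, had group means of at most 2.03 TPM, and none passed the test in any of the 3 comparisons. *Fcer2a*, the low-affinity IgE receptor CD23, was the only gene of the pathway lists called between the young groups. It was at 0.75 ± 0.0451 TPM in young TOM+ cDC2, 7.07 ± 1.22 in young TOM- DC2 and 2.64 ± 0.380 in adults (log2FC of young TOM+ over TOM- -3.27 ± 0.22, padj = 7.64e-06).

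*Fcer2a* is also expressed by B cells. Of 5 B cell markers, *Ms4a1* moved in the same way between the young groups (2.46 ± 0.376 TPM in TOM+ cDC2, 7.80 ± 2.29 in TOM- DC2, called) but was highest in adults (16.9 ± 4.51). *Cd79a* (0.327 TPM in young TOM+ cDC2 and 0.93 in TOM- DC2) and *Ebf1* (0.0567 and 0.103) had log2FC of TOM+ over TOM- of -1.75 and -0.82 and did not pass the test (padj = 0.523 and 0.911). *Cd79b* had one of -0.03 (padj = 0.976), and *Pax5*, at most 0.12 TPM in any library, was not tested. The summed B cell list, most of it *Cd79b*, ran from 60.97 to 70.49 TPM in young TOM+ cDC2, 69.36 to 80.27 in young TOM- DC2 and 40.05 to 53.41 in adult TOM+ cDC2. The part of B cells in the level of *Fcer2a* was not tested.

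Interferons are known inducers of *Il15* and *Il15ra*. Of 11 interferon receptors and factors that act on *Il15*, 10 were higher in adult than in young TOM+ cDC2 at padj under 0.05. Of all tested genes, 19.5% were higher in adults at this padj. The median log2FC was 0.53 for the list and -0.05 for all tested genes. Of the list, only *Irf7*, the factor that amplifies type I interferon, was called (44.4 ± 5.87 to 170 ± 14.4 TPM, log2FC 2.08 ± 0.12, padj = 1.95e-07). *Irf1*, a direct activator of *Il15*, rose from 156 ± 6.23 to 281 ± 19.3 TPM (0.98 ± 0.10, padj = 9.64e-06) and *Irf9* from 84.8 ± 5.30 to 152 ± 13.4 TPM (0.96 ± 0.09, padj = 8.16e-06). *Ifngr1*, the most abundant of the list, rose from 482 ± 36.5 to 749 ± 86.2 TPM (0.76 ± 0.09, padj = 2.86e-05). The exception was *Ifnar2*, with 150 ± 15.4 and 162 ± 22.2 TPM (padj = 0.979). The part of interferon and of these genes in the levels of *Il15* and *Il15ra* was not tested.

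**Figure D4:**
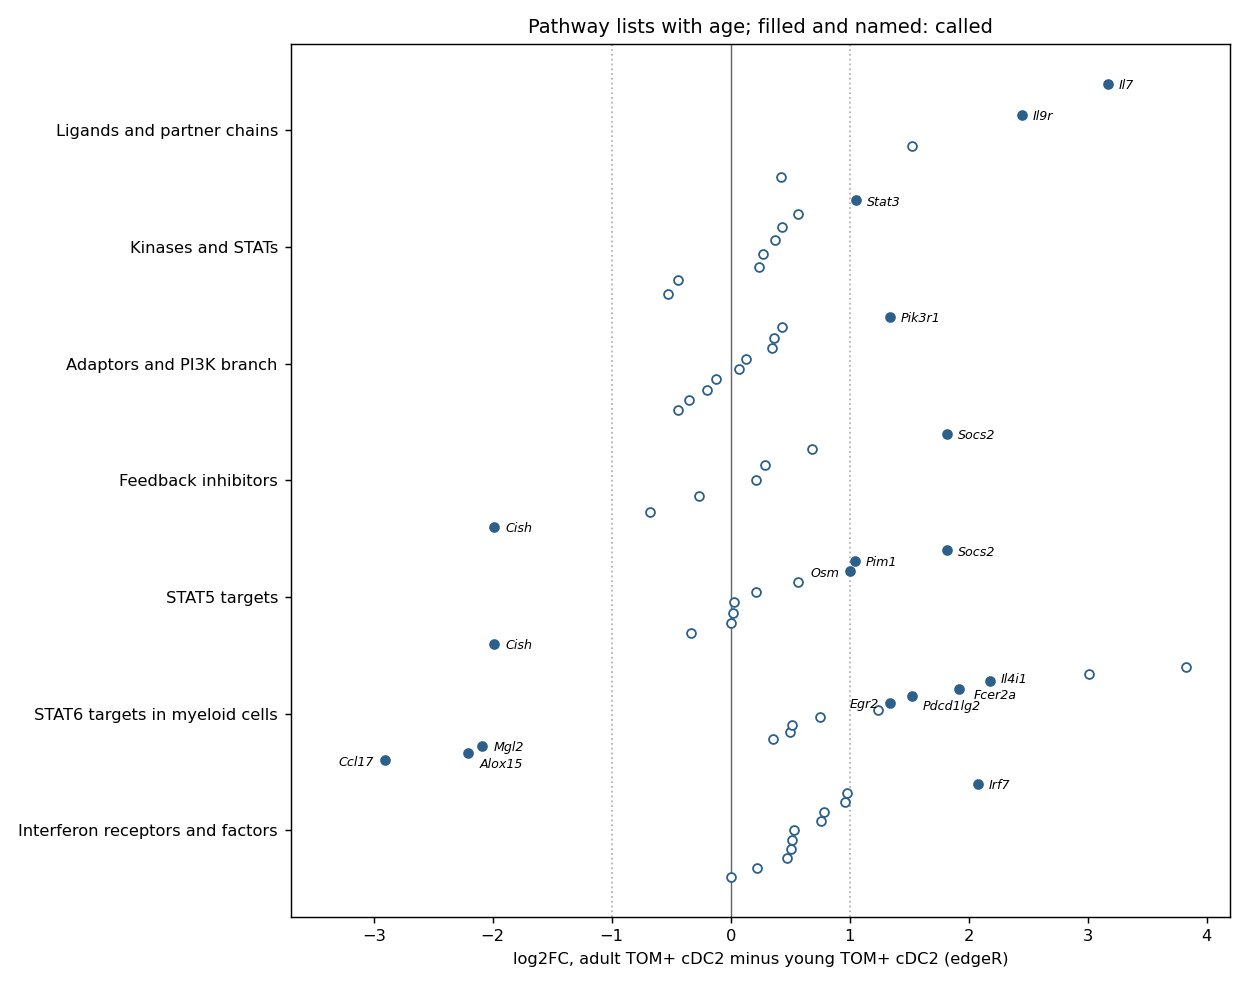
log2FC of adult over young TOM+ cDC2 (edgeR, horizontal axis) for the tested genes of the 7 pathway lists (rows), where each point is a gene, filled and named if called. Dotted lines mark -1 and 1. Irf7, Socs2 and Il7 lie to the right, Cish, Mgl2, Alox15 and Ccl17 to the left, and 10 of the 11 interferon receptors and factors lie above 0.2.

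Against young TOM- DC2, the same adult libraries gave 10 called genes over the 7 lists. In the order above, these lists had 4, 8, 10, 7, 10, 14 and 11 tested genes, with *Cish* and *Socs2* in both the feedback and STAT5 lists. Of all tested genes, 4.78% were called higher in adults and 6.5% higher in TOM- DC2. Higher in adults were *Il7* (log2FC 2.26), *Pik3r1* (1.17), *Socs2* (1.38), *Il4i1* (1.50), *Pdcd1lg2* (1.60) and *Irf7* (2.08). Lower were *Cish* (-2.19), *Fcer2a* (-1.35), *Alox15* (-1.90) and *Mgl2* (-2.50). *Fcer2a* thus lay between both young groups in adults, higher than in TOM+ and lower than in TOM- cells of young mice. With the replicate block for all libraries, the calls of *Socs2* (0.98) and *Il4i1* (0.97, padj = 0.18) were lost. The call of *Il7* was lost without TOM- DC2 replicate 1 or 3 or adult replicate 3 (padj = 0.0508, 0.0667 and 0.0612), and that of *Il4i1* without any 1 library of TOM- DC2 or without adult replicate 3 (padj up to 0.175).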

How the data were processed

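Gene expression was measured by mRNA sequencing (SMART-seq v4, which keeps no strand, single-end reads) in 9 libraries. The authors aligned reads to mm10 with STAR and deposited counts of reads per gene, not normalized, of which the unstranded column was used. From RSEM run on RefSeq transcripts the authors deposited expected counts, TPM and FPKM for each gene. TPM are relative to each library's total. Expected counts, rounded to whole numbers, were used in 1 alternative, and FPKM were not used. Versions of STAR and RSEM are not given in the sources used here. Because reads were counted without strand, overlapping and antisense genes are uncertain, as are genes with near-identical copies.

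Reads assigned to no gene (26.1% to 31.6% of all reads) stayed out of library sizes and tests. Library totals limit precision for *Il2ra* and *Il2rb*. TMM factors were 1.02 to 1.08 in young libraries and 0.894 to 0.928 in adults. No 2 libraries of a group were copies (chi-square per gene at least 8.74). Tests used edgeR 4.0.16 in R 4.3.3, the quasi-likelihood test after TMM normalization, on all 9 libraries and on genes whose mean count was 1 or more, and the fold and padj thresholds of the study's methods. Alternatives were other normalizations (DESeq2 size factors, upper quartile), other filters (none, filterByExpr), DESeq2 1.42.0, expected counts, limma 3.58.1 on log2(TPM + 1) and log2(TPM + 0.1), only the groups compared, a replicate block and leaving out each library. A log2FC on a log2(TPM + pseudocount) scale understates the change of low genes. The edgeR, DESeq2 and limma scripts were tested on simulated counts with known changes.

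The labels give no replicate numbers. The deposited names hold a number that the sources do not explain: 81, 91 and 92 for replicates 1, 2 and 3 of both young groups, and 91, 92 and 95 for adult replicates 1, 2 and 3. The replicate block used this number, so that adult replicates 1 and 2 share a block with young replicates 2 and 3. It was taken to pair the young libraries, because same-numbered young libraries deviated together from their group means (r = 0.743, 0.490 and 0.515 over 10112 genes). Between young and adult libraries, r ran from -0.013 to 0.149 for shared numbers and from -0.160 to 0.082 for different ones. This was at most a weaker pattern, so a block on the young libraries alone was added after seeing the data. Intervals on count ratios are exact conditional binomial intervals at 95%, with library sizes multiplied by the TMM factors.

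Named are all members, pathway-list genes called in at least 1 comparison plus the most abundant gene of each list, the 3 genes most correlated with each called member, and markers by list. Others chosen after their values were seen are *Akt1*, *Bcl2*, *Bcl2l1*, *Ccnd2*, *Irf1*, *Irf9*, *Ifnar2*, *Jak3*, *Tyk2*, *Socs1*, *Socs3*, *Stat5a*, *Stat5b*, *Stat6*, *Arg1*, *Retnla*, *Chil3*, *Mrc1* and the undetected ligands. Members and lists were chosen with earlier results of these data known. *Adgre1* was read under its older symbol, and *Trac* and *Ly6g* were not matched. A few listed genes are not reported here and were left out of the counts and sums of their lists. Protein sequences were not used here. Remaining marker lists are described under other observations.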

Additional observations from a re-analysis of the deposited data

How the results depend on the processing

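Over 20 alternative fits the members called numbered 1 between the young groups in every fit. For adult against young TOM+ cDC2, 4 were called, 1 with limma on log2(TPM + 1), 2 with limma on log2(TPM + 0.1), and 2 to 4 when leaving out 1 library (2 without adult replicate 1). Against young TOM- DC2 leaving out a library gave 2 to 4. Over all genes, 170 were called between the young groups (126 to 176 without 1 library, 274 with the replicate block for all libraries and 211 with the block on young libraries alone), 1853 for adult against young TOM+ cDC2 (1638 to 1887, and 1122 with limma on log2(TPM + 1)) and 1631 against TOM- DC2 (1486 to 1679, and 986 with limma on log2(TPM + 1)). The cause of the lower counts with limma was not tested.

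The replicate block for all libraries ended, among members and pathway genes named, the calls of *Il15ra*, *Socs2* and *Il4i1* against TOM- DC2 and of *Osm* with age, and changed no other call. With the block on young libraries alone *Il2ra* became called against TOM- DC2 (log2FC 1.01, padj = 0.0403). Expected counts called *Il15* there (1.01). Signs turned only where the differences were near 0 or rested on few reads. Between the young groups, *Il4ra* went to -0.0215 with upper quartile normalization, -0.022 with limma on log2(TPM + 1), -0.0223 on log2(TPM + 0.1) and ran from -0.124 to 0.141 without 1 library. Without 1 library *Il2rg* ran from -0.0075 to 0.0804, *Il15* from -0.373 to 0.0791, *Il21r* from -0.160 to 0.0755 and, with age, *Il2rb* from -1.36 to 0.0593. The TPM scale with a pseudocount of 0.1 lowered the median log2FC of all genes to -0.17 with age and -0.22 against TOM- DC2, and the share of calls that were higher in adults from 53.5% to 42.6% and from 42.4% to 29.7%. With a pseudocount of 1 the latter was 35.9%.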

Other observations

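Marker lists of other cell types showed the following summed levels in young TOM+ cDC2, young TOM- DC2 and adult TOM+ cDC2. Markers of cDC1 summed to 177.1 to 192.7, 175.1 to 193.6 and 190.5 to 206.0 TPM, most of it *Batf3*, and of 5 markers only *Cadm1* was called with age, lower in adults (log2FC -1.56 ± 0.12 against young TOM+ cDC2). Markers of plasmacytoid dendritic cells summed to 103.6 to 108.9, 109.3 to 115.8 and 121.7 to 164.2 TPM, most of it *Bst2* (means of 81.7, 90.5 and 118 TPM). *Siglech* reached at most 1.32 TPM. *Bst2* was higher in adult than in young TOM+ cDC2 (log2FC 0.68 ± 0.12, padj = 0.000873), and none of 5 was called in any comparison. Of 7 markers of monocytes and macrophages, which summed to 464.2 to 537.3, 437.2 to 528.1 and 356.9 to 408.6 TPM, *Ccr2* was called lower in adult than in young TOM+ cDC2 (-1.01 ± 0.18) and *Mertk* lower in adults than in TOM- DC2 (-1.99 ± 0.47). Of 4 measured neutrophil markers, *Mpo* was called lower in adults than in TOM- DC2 (-2.24 ± 0.62). Their sum was at most 0.94 TPM in young TOM+ cDC2 and 0.34 TPM in adults, and reached 13.98 TPM in 1 library of TOM- DC2 (the lowest had 0.38). Within the cDC2 list of 9, *Esam* and *Clec4a4* were called higher in adult than in young TOM+ cDC2 (2.21 ± 0.21 and 1.49 ± 0.11). Over all tested genes, 6.86% were called higher and 5.96% lower in adult than in young TOM+ cDC2. Against TOM- DC2 these shares were 4.78% and 6.5%.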
